A study of Mus musculus with 36 samples.

Results

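Left ventricles of mice with transverse aortic constriction (TAC) were compared between ZT15 and ZT03, times of day 12 hours apart, to ask which transcripts differ with time of day in the pressure-overloaded heart. The comparison rests on 6 of the 36 arrays of the series, chosen by their titles: 3 TAC hearts taken at ZT15 and 3 TAC hearts taken at ZT03, each from a different mouse killed 8 weeks after surgery. The remaining arrays are 12 TAC hearts at 4 other times and 18 hearts of mice after SHAM surgery, 3 at each of the 6 times. The SHAM hearts at ZT15 (3) and ZT03 (3) are given beside the TAC hearts. The labels used here give no strain, sex, age or light schedule.

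TAC narrows the aorta, so that the left ventricle pumps against a raised pressure, thickens and scars. Zeitgeber time (ZT) counts hours from lights on, and laboratory mice are active and feed mainly in the dark. Heart cells hold their own circadian clock: the activators CLOCK and BMAL1 (gene Arntl) switch on Per, Cry and Nr1d1 genes, whose proteins in turn hold the activators back, and DBP, TEF and HLF carry the rhythm to output genes. Feeding, glucocorticoids and body temperature also reach heart transcripts, through lipid, hormone and heat shock responses.

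Values are log2 values that stand relative to the middle of each surgery: the median of each probe set lay within 1e-06 of 0 in the 18 TAC arrays, and the same held in the 18 SHAM arrays. A value of 0 is therefore the TAC median of a probe set. Genes are means of their probe sets, and the median of a gene named below stands for 0 on this scale. No level can be compared between TAC and SHAM hearts. Differences below are ZT15 minus ZT03, so that a positive one means higher at ZT15, and their standard errors (SE) come from limma on the 18 TAC arrays with a mean for each of the 6 times. A gene passed at a Benjamini-Hochberg adjusted p under 0.05 over all 12393 genes.

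The promoter windows of 3 genes are shown for the results that follow: Nr1d1 and Slc41a3, the 2 genes with the smallest p of the comparison, and Hsph1, a heat shock gene that did not pass. Each window runs from 250 bases before to 50 after the gene start, 5′ to 3′, from RefSeq in build GRCm38.p6. Nr1d1 lies on the minus strand at chr11:98775328-98775627, Slc41a3 on the plus strand at chr6:90618996-90619295 and Hsph1 on the minus strand at chr5:149636266-149636565. Capitals mark matches, on either strand, to an E-box (CACGTG, the site that CLOCK and BMAL1 bind), a ROR element (TNGGTCA, bound by ROR and REV-ERB receptors) or a heat shock element (GAA, TTC and GAA with 2 free bases between neighbours, bound by HSF1).
Nr1d1: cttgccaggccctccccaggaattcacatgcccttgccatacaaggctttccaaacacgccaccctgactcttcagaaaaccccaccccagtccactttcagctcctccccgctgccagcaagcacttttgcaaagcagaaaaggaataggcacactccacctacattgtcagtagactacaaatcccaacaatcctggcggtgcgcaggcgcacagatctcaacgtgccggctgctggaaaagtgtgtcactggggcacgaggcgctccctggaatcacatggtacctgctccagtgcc
Slc41a3: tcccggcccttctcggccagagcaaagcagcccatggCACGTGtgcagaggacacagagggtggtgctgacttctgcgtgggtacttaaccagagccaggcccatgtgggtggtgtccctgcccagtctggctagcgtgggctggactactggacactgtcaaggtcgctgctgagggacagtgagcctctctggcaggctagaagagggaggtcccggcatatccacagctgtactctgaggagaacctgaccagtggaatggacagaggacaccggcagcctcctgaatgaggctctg
Hsph1: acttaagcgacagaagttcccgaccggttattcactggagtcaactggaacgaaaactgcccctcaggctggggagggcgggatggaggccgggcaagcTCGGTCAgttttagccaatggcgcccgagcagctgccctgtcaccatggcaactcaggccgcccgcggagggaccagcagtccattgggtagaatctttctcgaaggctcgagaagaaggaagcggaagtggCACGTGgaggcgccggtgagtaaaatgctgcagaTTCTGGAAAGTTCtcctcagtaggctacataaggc
The E-box of Slc41a3 starts at base -213 from the gene start, and the heat shock element of Hsph1 at base 15. The Nr1d1 window holds none of the 6 motifs searched, which besides these were the D-box (TTANGTAA), the glucocorticoid element (GNACA and TGTNC, 3 free bases apart) and the cAMP element (TGACGTCA). No match says only that these letters are not in this window.

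Among the 6 hearts compared, a single ZT03 heart stood apart from the rest. TAC ZT03 replicate 3 had Bpifa1, a secreted protein of the airway lining, at 4.90, against 0.31 and 0.09 in the other ZT03 hearts, and Scgb1a1, the club cell secretoglobin, at 3.94. The mean of 18 airway markers was 0.92 on that array and between -0.04 and 0.05 on the other 5. Not all of the markers were raised there. Its surfactant genes Sftpa1, Sftpb and Sftpc stood at -0.07, -0.0014 and -0.03, and Epcam, Foxj1 and Krt8 at 0.00014, 0.05 and 0.08. The same heart carried the highest mean of the activated fibroblast markers. Values without this heart are given beside results that it moved most. Outside the 6 hearts, the airway marker mean was 1.23 in TAC ZT23 replicate 1 and 0.71 in SHAM ZT23 replicate 3. That TAC ZT23 heart is among the 18 TAC arrays that set the SE. The cardiomyocyte marker mean lay between -0.04 and 0.02 on all 6 arrays, but the centring removes levels, so markers could not be used to check the labelled tissue. The atrial marker mean differed more between hearts, at 0.08, -0.06 and 0.23 at ZT15, against 0.12, 0.14 and -0.25 at ZT03.

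In TAC hearts 13 of 12393 genes passed between ZT15 and ZT03, or 0.105%, of which 9 were higher at ZT15 (0.0726%) and 4 lower (0.0323%). The 4 lower genes were Nr1d1, Slc41a3, Srsf5 and Bach2. The 9 higher genes were Gstt1, Gsta3, Fmo1, Hsd11b1, Noct, Chd6, Ciapin1, Card19 and Ucp1. In each of the 13, no ZT15 heart overlapped a ZT03 heart, as in 12.9% of all genes. At an unadjusted p under 0.05 the count was 1230 genes, or 9.92%. Without ZT03 replicate 3, 4 genes passed (0.0323%), Nr1d1, Slc41a3, Gstt1 and Pgam1, a glycolytic phosphoglycerate mutase. The other 10 of the 13 kept their direction without it but did not pass, with limma adjusted p of 0.0682 for Ciapin1, 0.0781 for Fmo1, 0.0813 for Srsf5, Gsta3, Hsd11b1 and Ucp1, 0.0844 for Bach2 and Chd6, and 0.1 for Noct and Card19. The count also depended on the other hearts, at 1 without ZT03 replicate 2 and 2 without either ZT03 replicate 1 or ZT15 replicate 3.

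Nr1d1, which encodes REV-ERBα, the heme-binding receptor that represses Arntl, was the gene with the smallest p. Its values were -0.27, -0.33 and -0.55 in TAC hearts at ZT15, against 1.20, 1.48 and 0.77 at ZT03. Every ZT15 heart lay below its TAC median and every ZT03 heart above it, with the airway-marked heart the lowest at ZT03. The difference was -1.53 ± 0.13 (SE, n = 3 each), a 2.89-fold lower value at ZT15, with a limma adjusted p of 2.14e-05. Without ZT03 replicate 3 it was -1.72. In SHAM hearts Nr1d1 differed by -0.94 ± 0.08 (limma adjusted p 3.52e-06), with values of -0.31, -0.42 and -0.15 at ZT15 and 0.59, 0.77 and 0.58 at ZT03. Relative to the median of its own surgery, the ZT15 mean was -0.38 in TAC and -0.29 in SHAM hearts, and the ZT03 mean 1.15 in TAC and 0.65 in SHAM hearts.

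Slc41a3, of the SLC41 family of magnesium transporters, had values of -0.47, -0.32 and -0.33 in TAC hearts at ZT15, against 0.24, 0.46 and 0.23 at ZT03. The groups lay on opposite sides of the TAC median. The difference was -0.68 ± 0.09 (SE, n = 3 each; limma adjusted p 0.00624), and without ZT03 replicate 2 the adjusted p was 0.075. In SHAM hearts the difference was -1.10 ± 0.07, with ZT15 at -0.51, -0.46 and -0.53 and ZT03 at 0.67, 0.61 and 0.54. The 3 Slc41a3 probe sets differed in size in TAC hearts, at -0.87, -0.83 and -0.35.

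Srsf5, a serine and arginine-rich splicing factor, had values of -0.81, -0.63 and -0.88 at ZT15, against 0.23, 0.18 and 0.01 at ZT03. All ZT15 hearts were low, and ZT15 held the lowest of the 6 TAC means. It fell by 0.91 on the log2 scale (SE 0.17, n = 3 each; limma adjusted p 0.0475). Of 24 measured splicing factors it was the only one that passed, against 0.105% of all genes. Srsf6 differed by -0.15 and Srsf10 by 0.27. Bach2, a transcriptional repressor best known in B cells, had values of -0.06, -0.12 and -0.21 at ZT15, against 0.17, 0.32 and 0.23 at ZT03. Its difference was -0.37 ± 0.07 (SE, n = 3 each; limma adjusted p 0.0451), and the corresponding SHAM difference of -0.15 did not pass. The mean of 7 B cell markers was -0.03, 0.08 and -0.01 at ZT15, against 0.03, 0.06 and 0.35 at ZT03, highest in the heart with airway transcripts. Its part in the Bach2 result was not tested. Since these are whole tissues, fewer cells of a type and less RNA per cell cannot be told apart for any gene.

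The higher genes included 2 glutathione S-transferases, a flavin monooxygenase and a steroid dehydrogenase. Gstt1, a glutathione S-transferase, had values of 0.34, 0.55 and 0.62 in TAC hearts at ZT15, against -0.07, -0.07 and 0.03 at ZT03. It rose by 0.55 ± 0.08 (SE, n = 3 each; limma adjusted p 0.0189), and by 0.58 without ZT03 replicate 3. Gsta3, an alpha-class glutathione S-transferase, had values of 0.12, 0.40 and 0.49 at ZT15, against -0.28, -0.32 and -0.27 at ZT03. The ZT03 hearts were nearly alike and the ZT15 hearts spread upward. Gsta3 rose by 0.62 ± 0.11 (limma adjusted p 0.0451), although its 2 probe sets disagreed, at 1.01 and 0.24. Fmo1, a flavin monooxygenase, stood at 0.27, 0.25 and 0.61 at ZT15, against -0.29, -0.31 and -0.23 at ZT03, a difference of 0.66 ± 0.11 (limma adjusted p 0.0359). Hsd11b1, which regenerates active glucocorticoid inside cells, stood at 0.28, 0.25 and 0.52 at ZT15, against -0.08, -0.21 and -0.30 at ZT03. All ZT15 hearts were above and all ZT03 hearts below the TAC median, a difference of 0.55 ± 0.09 (limma adjusted p 0.0359). In SHAM hearts all 4 enzyme genes also passed, with differences of 0.39 for Gstt1, 0.63 for Gsta3, 0.61 for Fmo1 and 0.35 for Hsd11b1.

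Noct, the nocturnin gene, whose product removes a phosphate from NADP cofactors and which cycles in many mouse tissues, had values of 0.62, 0.33 and 0.80 in TAC hearts at ZT15, against -0.27, -0.60 and -0.62 at ZT03. It rose by 1.08 ± 0.19 (SE, n = 3 each; limma adjusted p 0.0451), beside 1.14 ± 0.12 in SHAM hearts. Chd6, a chromatin remodelling helicase, stood at 0.43, 0.60 and 0.64 at ZT15, against -0.27, -0.33 and -0.67 at ZT03. Its difference was 0.98 ± 0.16 (limma adjusted p 0.0359) in TAC and 1.05 ± 0.13 in SHAM hearts. For both genes the ZT15 and ZT03 hearts lay on opposite sides of the median in either surgery.

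Ciapin1, an iron-sulphur cluster assembly factor, had values of 0.22, 0.24 and 0.50 in TAC hearts at ZT15, against -0.32, -0.09 and -0.04 at ZT03. It rose by 0.47 ± 0.09 (SE, n = 3 each; limma adjusted p 0.0451), beside 0.21 ± 0.05 in SHAM hearts. Card19, a protein with a caspase recruitment domain, stood at 0.12, 0.23 and 0.26 at ZT15, against -0.19, -0.10 and -0.20 at ZT03. Both genes changed by less than 1.5-fold, and the SHAM difference of Card19, 0.22, did not pass. Among the 13 genes, 8 differed by at least 1.5-fold.

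Ucp1, the uncoupling protein that makes brown fat produce heat, had the largest difference of the 13 and is also 1 of the brown adipocyte markers. Its values were 2.45, 1.18 and 2.30 in TAC hearts at ZT15, against -0.02, -0.07 and 0.20 at ZT03. It rose by 1.94 ± 0.35 (SE, n = 3 each; limma adjusted p 0.0451). In SHAM hearts Ucp1 differed by 0.61 ± 0.67 and did not pass, and with the spread of all 36 arrays the TAC difference did not pass either (limma adjusted p 0.12). Over the day Ucp1 averaged 0.04 at ZT03, -0.01 at ZT07, 0.56 at ZT11, 1.98 at ZT15, -0.16 at ZT19 and -0.10 at ZT23 in TAC hearts, so that ZT15 held the highest mean. Some white adipocyte markers stood high in the same hearts. Adipoq, the adipocyte hormone adiponectin, was at 2.16, 2.27 and 2.80 at ZT15, against -0.52, -0.98 and 2.23 at ZT03. The mean of the 10 measured white adipocyte markers was 0.60, 0.56 and 0.94 at ZT15, against -0.14, -0.23 and 0.41 at ZT03. Their differences ran from -0.07 for Acvr1c to 2.17 for Adipoq, with a median of 0.21. Of the 10, 8 were positive, against 48.2% of all genes. Lep, the leptin gene, stayed between -0.04 and 0.10 on all 6 arrays. Of the 8 measured brown adipocyte markers only Ucp1 passed, against 0.105% of all genes. The list showed no common rise, with 5 positive and 3 negative differences and a median of 0.08. Dio2 differed by -0.24 and Zic1 by -0.19, while Elovl3 (0.05) and Cox8b (0.10) differed little. Cidea, a lipid droplet protein, differed by 0.98 and was the gene nearest to passing, at a limma adjusted p of 0.0581. With the white adipocyte and atrial marker means as covariates the Ucp1 difference was 1.37, at an adjusted p of 0.257, and only Nr1d1 and Slc41a3 passed of all genes.

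**Figure D1:**
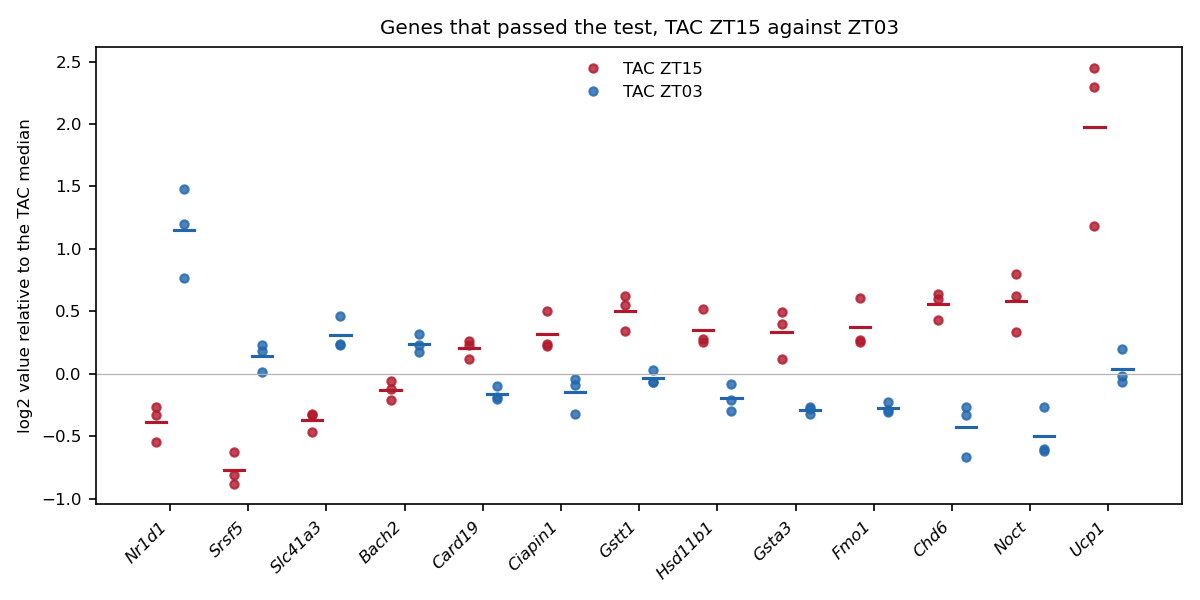
Each point is 1 TAC heart, and the y axis is its log2 value relative to the medians of the gene's probe sets over the 18 TAC hearts. ZT15 is red, ZT03 blue, and the short line is the mean of 3 hearts. The 13 genes that passed are ordered by their difference, from Nr1d1 at -1.53 to Ucp1 at 1.94, and in none do the groups overlap.

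ZT15 held the highest of the 6 TAC means in 8 of the 9 higher genes, the exception being Chd6, whose mean was 0.60 at ZT19. ZT03 held the lowest TAC mean in 5 of them. Of the 4 lower genes, 3 had their lowest TAC mean at ZT15, while that of Nr1d1 came at ZT19 (-0.61). Of the 13 genes, 12 have a promoter entry in RefSeq, Fmo1 being the gene without one. Slc41a3 was the only one with an E-box (7.15% of all 32851 promoter windows hold one) and Card19 the only one with a ROR element (11%). None of the 12 windows held a D-box (2.32% of all windows), a heat shock element (0.603%), a glucocorticoid element (0.475%) or a cAMP element (1.79%).

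In SHAM hearts the same comparison called 406 genes (3.28%), 214 higher (1.73%) and 192 lower (1.55%) at ZT15. Of the 13 genes called in TAC hearts, 10 were also called in SHAM hearts, which is 76.9% of the TAC calls and 2.46% of the SHAM calls. Bach2, Card19 and Ucp1 were the 3 others, and all 13 had the same sign in both. Of the 406 SHAM calls, 363 (89.4%) had the same sign in TAC hearts, against 69.2% of all genes. The median size over the SHAM calls was 0.32 in SHAM hearts and 0.18 in TAC hearts in the SHAM direction, a gap that the choice of genes by their SHAM values widens. The median SD over all genes among the 3 hearts of a group was 0.0888 in TAC hearts at ZT15 and 0.0775 at ZT03, against 0.0516 in SHAM hearts at ZT15 and 0.0802 at ZT03. Fewer calls in TAC hearts do not show that the time difference itself was smaller.

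The test of that difference, TAC minus SHAM over all 36 arrays, called 0 of 12393 genes (0%) with limma, where 597 (4.82%) had an unadjusted p under 0.05. The smallest adjusted p was 0.167, shared by Per2, Tjp3, Adamts1, Nup62, Tnfaip2 and Dbp. Without TAC ZT03 replicate 3 the test called 6 genes: Dbp, Spsb4, Tnfrsf12a, Nr1d1, Tef and Per2. Their differences without that heart were -1.88 for Dbp (limma adjusted p 0.00376), 0.80 for Spsb4 (0.0066), 1.24 for Tnfrsf12a (0.00842), -0.78 for Nr1d1 (0.00976), -0.53 for Tef (0.01) and -0.62 for Per2 (0.0163). Of the 6, Nr1d1, Dbp, Tef and Per2 are clock genes, Spsb4 encodes an adaptor of ubiquitin ligases and Tnfrsf12a the receptor of the cytokine TWEAK. With all hearts kept, the same differences were -1.50, 0.64, 0.96, -0.59, -0.44 and -0.56, and none passed.

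Of 33 clock genes listed, 29 were measured. Nr1d1 alone passed in TAC hearts (0.105% of all genes), and 16 of the 29 in SHAM hearts (3.28%). The groups did not overlap in TAC hearts for 12 of the 29, against 12.9% of all genes. Of the 16 genes called in SHAM hearts, 15 had a smaller difference in TAC hearts in the SHAM direction, Nr1d1 being the exception; these 16 were chosen by their SHAM values, which favours that order. Unadjusted, the TAC minus SHAM difference had a p under 0.05 for 12 of the 29, against 4.82% of all genes.

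Dbp, the PAR bZIP output factor, showed the widest gap between the surgeries. In TAC hearts it stood at -0.31, 0.26 and -0.35 at ZT15, against 0.52, 0.19 and -0.77 at ZT03. The TAC groups overlapped and the difference was -0.11 ± 0.27 (SE, n = 3 each; limma adjusted p 0.917). It rested on ZT03 replicate 3, the lowest of the 6 hearts, without which it was -0.49 (limma adjusted p 0.33). In SHAM hearts it stood at 0.48, 0.54 and 1.03 at ZT15, against -0.53, -0.66 and -0.94 at ZT03, a difference of 1.39 ± 0.15 (limma adjusted p 2.32e-05). Over the day the TAC means ran -0.02 at ZT03, 1.43 at ZT07, 1.08 at ZT11, -0.13 at ZT15 and -1.11 at ZT23. The SHAM means at the same times were -0.71, 1.82, 1.82, 0.68 and -0.94. Both times lay below the ZT07 peak in TAC hearts, so that the difference between them does not measure the swing over the day.

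**Figure D2:**
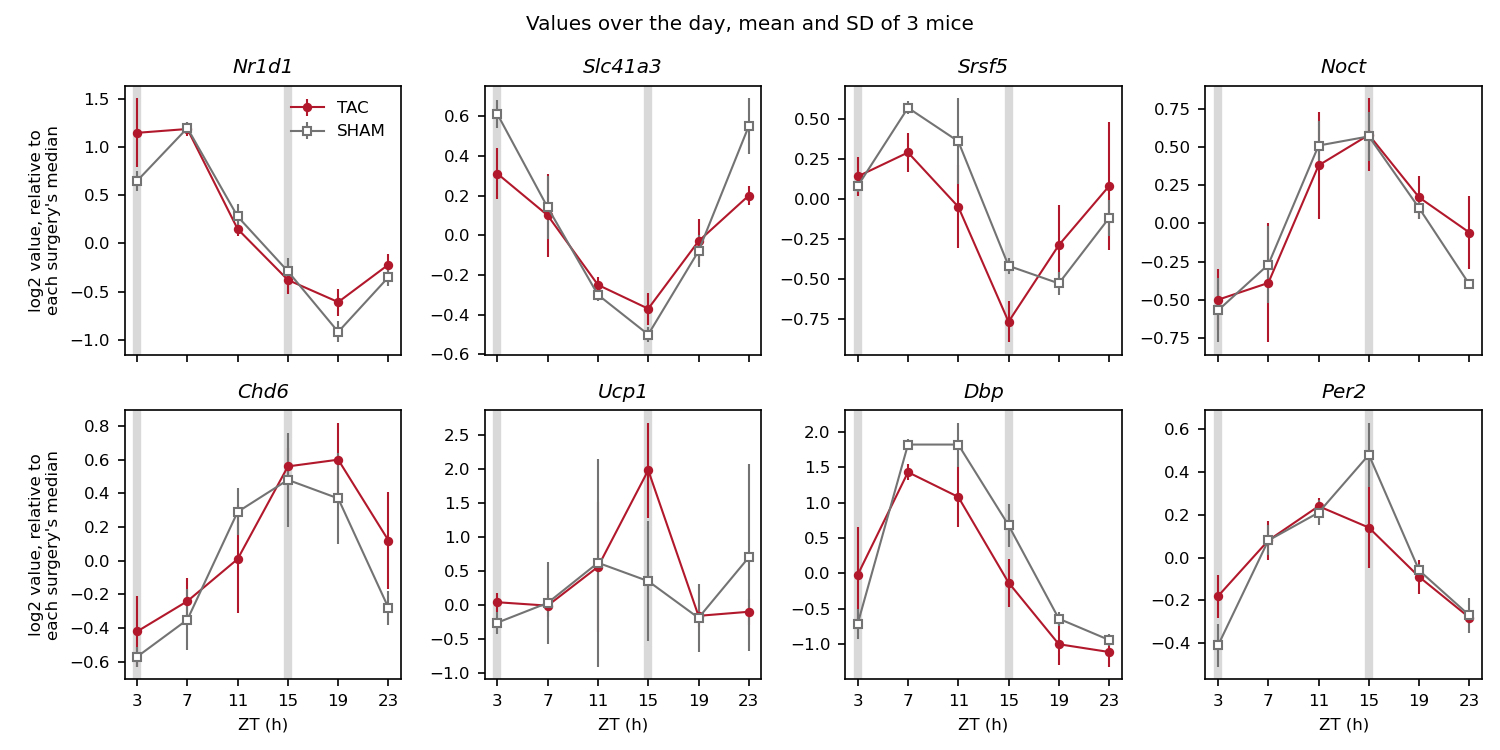
The x axis is ZT in hours and the y axis the log2 value relative to the medians of the gene's probe sets in its surgery. Red circles are TAC and open grey squares SHAM hearts, with mean and SD of 3 mice, and grey bands mark ZT03 and ZT15. Dbp reaches 1.43 in TAC hearts at ZT07 but lies at -0.13 at ZT15 and -0.02 at ZT03, while Nr1d1 lies at -0.38 at ZT15 and 1.15 at ZT03 in TAC hearts.

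The repressors divided by gene. Per2 stood at 0.30, 0.19 and -0.07 in TAC hearts at ZT15, against -0.12, -0.13 and -0.30 at ZT03, a difference of 0.33 ± 0.08 (limma adjusted p 0.181), beside 0.89 ± 0.07 in SHAM hearts. All 3 ZT15 hearts lay above the ZT03 hearts, by little. Nr1d2, which encodes REV-ERBβ, differed by -0.07 ± 0.16 in TAC and 0.71 ± 0.11 in SHAM hearts, with TAC values of -0.28, 0.15 and -0.04 at ZT15, against 0.26, 0.09 and -0.29 at ZT03. Its TAC difference was -0.22 without ZT03 replicate 3. Cry2 was close in both, at 0.31 in TAC and 0.38 in SHAM hearts, and Cry1 differed by 0.27 in TAC and 0.18 in SHAM hearts. Nfil3, which competes with DBP for its sites, stood at 0.83, 0.13 and 0.64 in TAC hearts at ZT15, against -0.45, -0.28 and -0.11 at ZT03. Its TAC difference of 0.81 ± 0.21 did not pass (limma adjusted p 0.197), and its SHAM difference was -0.08. Bhlhe40, the DEC1 repressor, differed by -0.45 ± 0.09 in TAC hearts (limma adjusted p 0.0677) and by -0.04 in SHAM hearts. The kinases Csnk1d and Csnk1e differed by 0.01 and 0.05 in TAC hearts.

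Among the activators, Arntl stood at 0.01, -0.17 and -0.14 in TAC hearts at ZT15, against -0.01, 0.07 and 0.33 at ZT03. The groups overlapped, with a difference of -0.23 ± 0.11 (limma adjusted p 0.491), beside -0.61 ± 0.07 in SHAM hearts. Without ZT03 replicate 3, the highest of the 6 hearts, it was -0.13. Clock differed by -0.11 in TAC and -0.37 in SHAM hearts, and its paralogue Npas2 by -0.23 in TAC and -0.27 in SHAM hearts. Of the output factors, Hlf differed by 0.45 ± 0.11 and Tef by 0.13 ± 0.09 in TAC hearts, beside 0.77 for Hlf and 0.56 for Tef in SHAM hearts. The TAC differences were 0.32 for Hlf and 0.03 for Tef without ZT03 replicate 3. Usp2, a deubiquitinase, stood at -0.03, 0.10 and 0.51 at ZT15, against 0.21, -0.28 and -0.89 at ZT03 in TAC hearts. Its ZT03 hearts spread over a wider range than the groups differed, and its difference of 0.52 was 0.23 without ZT03 replicate 3. Wee1, a kinase that holds back mitosis, differed by 0.20 in TAC and 0.44 in SHAM hearts, and Nampt, the rate-limiting enzyme of NAD salvage, by 0.20 in TAC and 0.51 in SHAM hearts. ZT03 replicate 3 was also the lowest of the ZT03 hearts for Dbp, Nr1d2, Tef and Hlf, and the highest for Arntl.

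**Figure D3:**
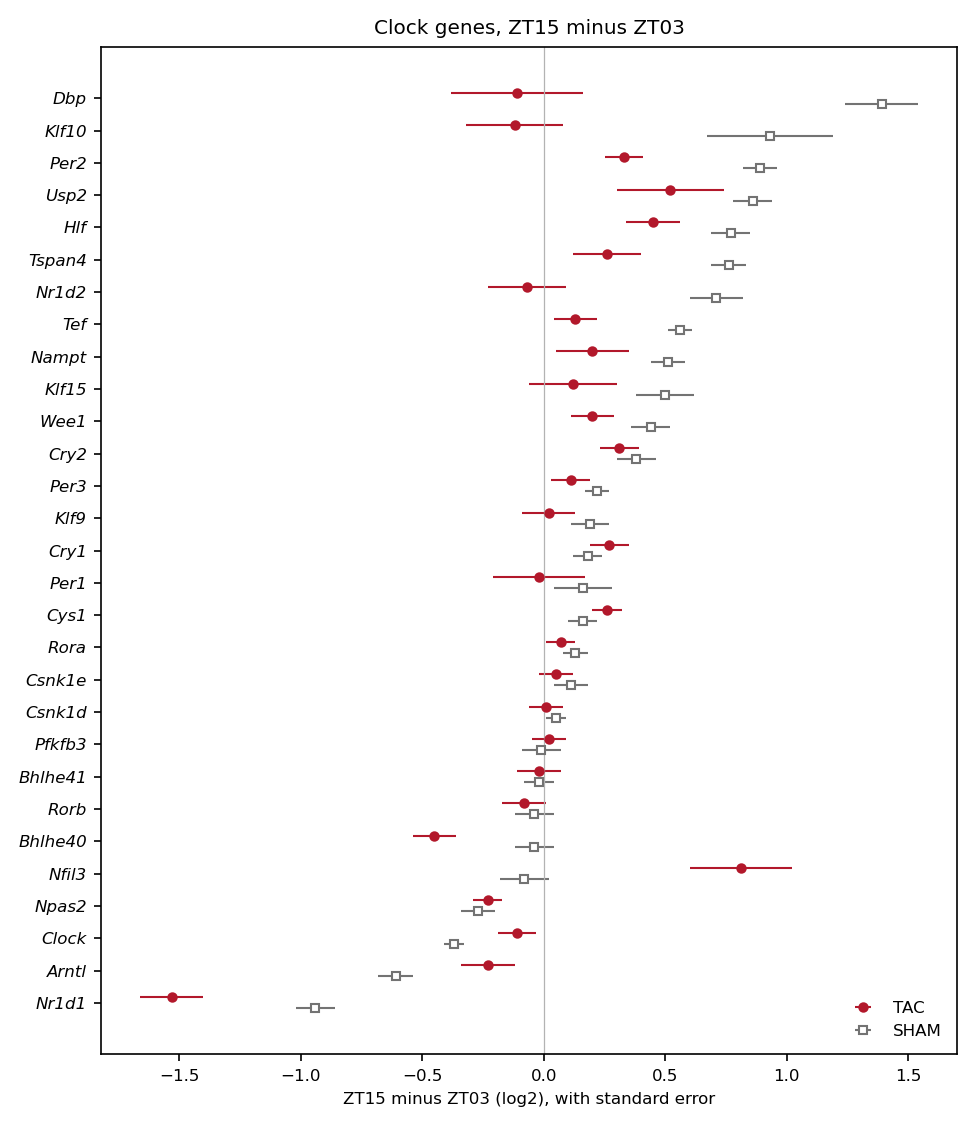
The x axis is the ZT15 minus ZT03 difference in log2 units with its SE, for each of the 29 measured clock genes; red circles are TAC and open grey squares SHAM hearts, and genes run from the highest SHAM difference at the top to the lowest. Most TAC points lie nearer 0 than the SHAM points, with Nr1d1, Nfil3 and Bhlhe40 further out.

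Heat shock genes stood higher at ZT15. Of 20 measured chaperones and co-chaperones of the cytosol and mitochondria, 0 passed and 18 had a positive difference, against 48.2% of all genes, with a median of 0.32 (-0.0043 over all genes). In 9 of the 20 all ZT15 hearts lay above all ZT03 hearts, against 7.25% of all genes, and 11 had an unadjusted p under 0.05 upward, against 5.91%. Hspa1a, the inducible HSP70, stood at 1.59, 0.24 and 0.82 at ZT15, against -0.00075, -0.04 and -0.08 at ZT03. The near-identical Hspa1b stood at 1.13, 0.23 and 1.04 at ZT15, against -0.30, -0.09 and 0.01 at ZT03, and probes may not separate the 2 genes. ZT15 replicate 2 was the lowest of its group for both. Dnaja1, a J-domain partner of HSP70, differed by 0.72 ± 0.17 (limma adjusted p 0.177), and Dnajb4 by 0.56 ± 0.12 (0.123).

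Hsph1, an HSP110 exchange factor, stood at 0.45, 0.24 and 0.60 at ZT15, against -0.46, -0.12 and 0.05 at ZT03, with no overlap and a difference of 0.61 ± 0.25 (limma adjusted p 0.457). Its promoter window is the last of those printed above. Of the 17 heat shock genes with a promoter entry, 4 held a heat shock element in a window: Hsph1, Chordc1, and the neighbours Hspd1 and Hspe1, whose windows overlap and share that stretch of DNA. Of all windows 0.603% hold one, a share of windows and not of genes. Hspb7 (-0.16) and Hspa4 (-0.02) were the 2 genes with a negative difference. Without ZT03 replicate 3 the median was 0.34, and it lay between 0.21 and 0.36 when each of the 6 hearts was left out in turn. In SHAM hearts the median was 0.07, and 2 of the 20 passed higher at ZT15, against 1.73% of all genes. With the spread of all 36 arrays, where 0.847% of all genes passed, Dnajb4, Dnaja1, Hspa1a and Hspa1b passed in TAC hearts. Hsph1, Hspa1a and Dnaja1 were singled out after their values were seen.

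Other protein quality genes stood in the same direction with smaller differences. All 8 subunits of the TCP1 ring, which folds actin and tubulin, had a positive difference, between 0.11 and 0.20, with 4 of 8 lying higher without overlap (7.25% of all genes) and 0 passing. Their median of 0.17 lay between 0.10 and 0.21 when single hearts were left out, and the SHAM median was 0.11. Their mean per heart overlapped between the groups, at -0.05, 0.04 and 0.22 at ZT15, against -0.16, -0.11 and -0.01 at ZT03. Of 27 proteasome subunits 26 were positive, with a median of 0.09 (0.03 to 0.14 with single hearts left out) and 0 passing. The 3 above without overlap were a share near the 7.25% of all genes. The proteasome median in SHAM hearts was 0.12. In TAC hearts the mean of the subunits overlapped between the groups, at -0.06, 0.02 and 0.13 at ZT15, against -0.13, -0.11 and -0.01 at ZT03. Of 24 genes of endoplasmic reticulum stress 19 were positive, with a median of 0.13 (0.07 to 0.18 with single hearts left out), and 0 passed; the SHAM median was -0.10. Herpud1, a part of the degradation machinery of that compartment, stood at 0.37, 0.37 and 0.66 at ZT15, against -0.17, -0.42 and -0.59 at ZT03. Its groups lay on opposite sides of the median, at 0.86 ± 0.17 (limma adjusted p 0.0677), and in SHAM hearts it passed at 1.17. Ddit3, the CHOP factor, differed by 0.40 ± 0.10 (limma adjusted p 0.181).

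Mitochondrial ribosomal proteins were positive in 24 of 26 genes, with a median of 0.14, all ZT15 hearts above all ZT03 hearts in 12 (7.25% of all genes), and 0 passing. The median lay between 0.09 and 0.19 when single hearts were left out. Their mean per heart was -0.01, 0.04 and 0.22 at ZT15, against -0.12, -0.07 and -0.02 at ZT03. ZT15 replicate 3 stood highest, and the other hearts lay within a narrow range. Mrps22 differed by 0.32 ± 0.10 (limma adjusted p 0.28). The respiratory chain and ATP synthase genes were positive in 28 of 35, with a median of 0.06, which lay between -0.0035 and 0.10 when single hearts were left out. Citrate cycle genes were positive in 15 of 19, with a median of 0.10 (0.03 to 0.13 with single hearts left out), and in 11 of 19 without ZT03 replicate 3. Cytosolic ribosomal proteins were positive in 19 of 21, with a median of 0.09 that was 0.16 without ZT03 replicate 3, and 1 gene lay higher without overlap, a share below the 7.25% of all genes.

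Genes of lipid making and storage stood higher at ZT15, together with some of the adipocyte markers. All 15 measured genes of triglyceride storage and lipolysis were positive, with a median of 0.27, 10 of 15 higher without overlap (7.25% of all genes) and 0 passing. G0s2, the inhibitor of adipose triglyceride lipase, stood at 0.98, 0.49 and 1.63 at ZT15, against -0.29, -0.21 and 0.03 at ZT03, with a difference of 1.19 ± 0.25 (limma adjusted p 0.117); in SHAM hearts it passed, at 1.66 ± 0.16. Of 14 genes of fatty acid synthesis 12 were positive, with a median of 0.24 and 0 passing. Fasn, the fatty acid synthase, stood at 1.92, 1.74 and 2.55 at ZT15, against -0.18, -0.16 and 1.19 at ZT03, and Scd1, the stearoyl-CoA desaturase, at 1.84, 2.04 and 2.29 at ZT15, against -0.23, -0.41 and 1.04 at ZT03. For both, all ZT15 hearts were high, and ZT03 replicate 3, the ZT03 heart with high Adipoq, was the highest of its group. Fasn differed by 1.79 ± 0.55 (limma adjusted p 0.288) and by 0.67 with the marker covariates, and Scd1 by 1.93 ± 0.58 (0.28) and by 0.69. Thrsp, which responds to thyroid hormone and feeding and is also a white adipocyte marker, differed by 1.44 ± 0.30 (limma adjusted p 0.112). The storage median was 0.16 with the covariates, and the synthesis median 0.22. Cidec and Lipe of the storage list, like Thrsp of the synthesis list, are among the markers averaged in the adipocyte covariate. Fasn and Scd1 were singled out after their values were seen.

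Mitochondrial fatty acid oxidation genes were positive in 16 of 17, with a median of 0.09, and in 12 of 17 without ZT03 replicate 3, with a median of 0.05. The 2 that lay higher without overlap were a share near the 7.25% of all genes. Fasting and PPAR-alpha targets showed no common direction, with 10 of 18 positive and a median of 0.04. Glycolytic genes were positive in 18 of 20 with a median of 0.08, among which Pgam1 stood at 0.22, 0.01 and 0.36 at ZT15, against -0.81, -0.67 and -0.01 at ZT03. Its ZT03 replicate 3 lay close to the ZT15 hearts, at a difference of 0.69 ± 0.17 (limma adjusted p 0.178), and without that heart Pgam1 was higher by 0.93 and passed (limma adjusted p 0.0245).

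Glucocorticoid targets were positive in 14 of 18 in TAC hearts, with a median of 0.20 and 0 passing. That median was 0.10 without ZT03 replicate 3 and -0.02 with the marker covariates. In SHAM hearts the list median was 0.30, and 8 of the 18 passed higher at ZT15, against 1.73% of all genes. Tsc22d3, the GILZ gene, stood at 0.12, 0.12 and 0.04 at ZT15, against -0.46, -0.50 and -0.53 at ZT03. The hearts were close within each group, and the difference was 0.59 ± 0.12 (limma adjusted p 0.101), beside 0.84 ± 0.10 in SHAM hearts. Zbtb16 differed by 0.59 in TAC and 1.41 in SHAM hearts. Of 20 oxidative stress genes 16 were positive, with a median of 0.10 and 0 passing. Nfe2l2, the NRF2 factor, differed by 0.42 ± 0.13 (limma adjusted p 0.282).

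**Figure D4:**
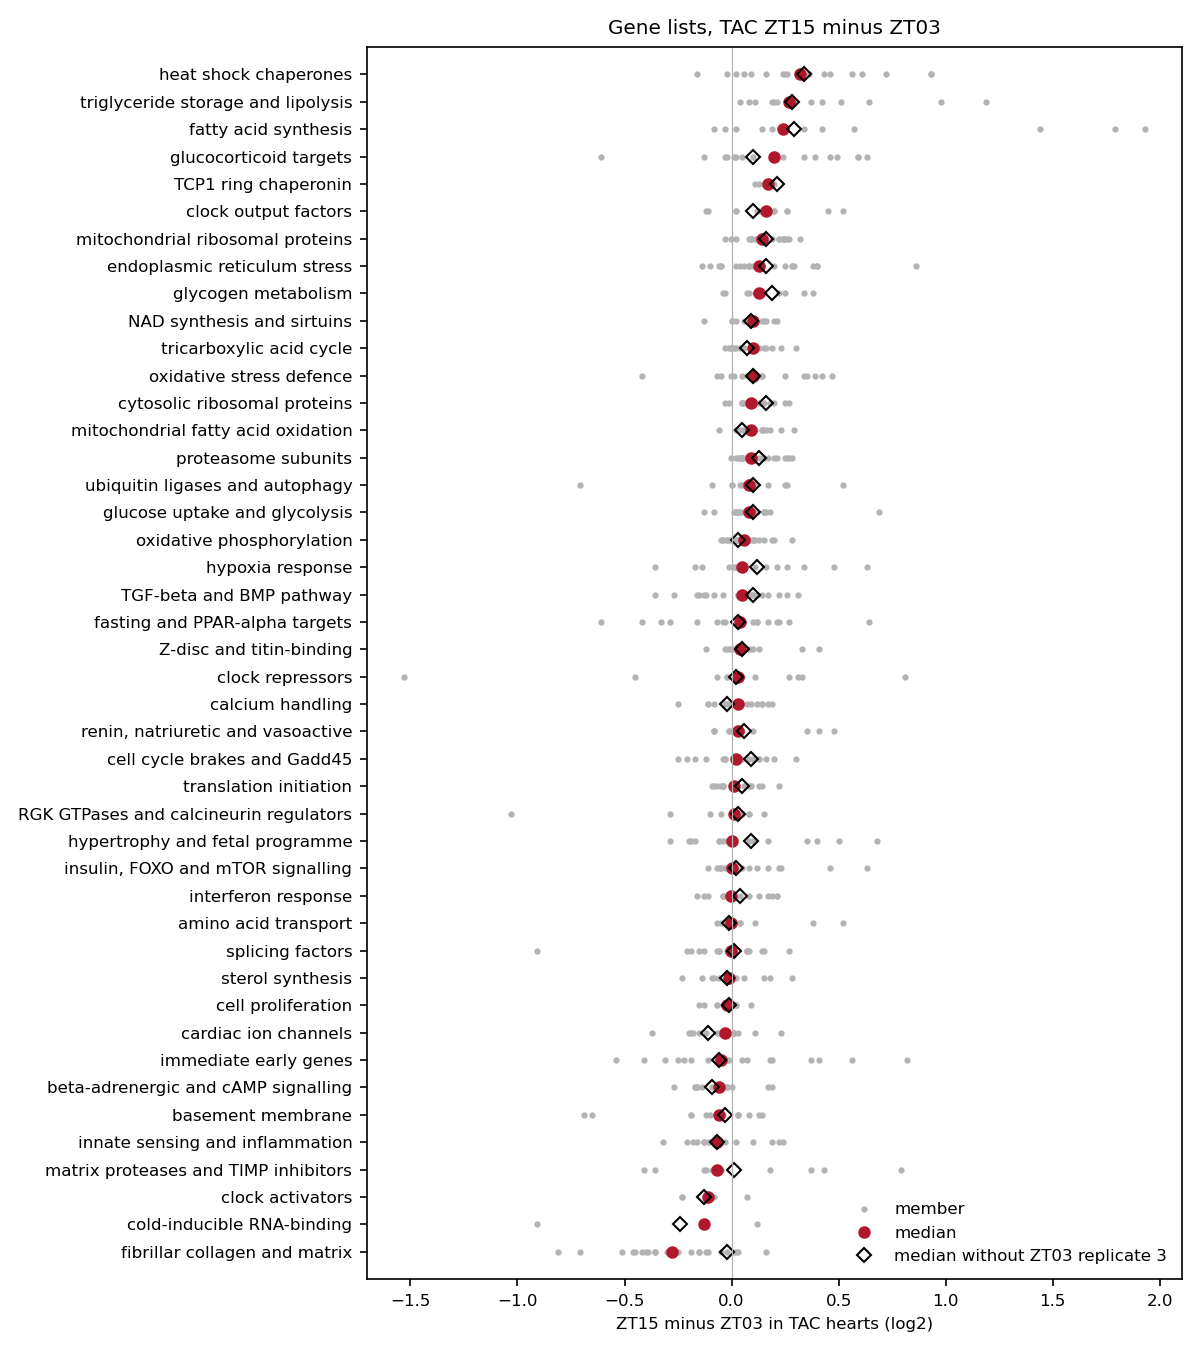
Each row is 1 of the 44 lists of pathways, complexes and clock roles, and the x axis is the ZT15 minus ZT03 difference in TAC hearts in log2 units; grey points are genes, red circles medians, and open diamonds medians without ZT03 replicate 3. Heat shock chaperones (0.32) and triglyceride storage (0.27) have the highest medians, and fibrillar matrix has the lowest (-0.28), which lies at -0.02 without that heart.

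Matrix genes stood lower at ZT15 in SHAM hearts, and in TAC hearts too, where both the common direction and the size rested on ZT03 replicate 3. Of 27 genes of fibrillar collagen and matrix 23 had a negative difference, with a median of -0.28, 2 below without overlap (5.66% of all genes), 6 with an unadjusted p under 0.05 downward (4.01%) and 0 passing. Without that heart 13 of 27 were positive and the median was -0.02. In SHAM hearts the median was -0.20 and 9 of the 27 passed lower at ZT15, against 1.55% of all genes. The list mean was -0.18, -0.12 and -0.62 at ZT15, against -0.43, -0.14 and 0.45 at ZT03, so that the lowest and the highest heart were ZT15 replicate 3 and ZT03 replicate 3. Col1a1, a chain of collagen I, stood at -0.31, -0.13 and -0.82 at ZT15, against -0.33, -0.15 and 0.58 at ZT03. Col15a1, a collagen near basement membranes, differed by -0.81 ± 0.21 (limma adjusted p 0.215) and by -0.66 without ZT03 replicate 3, and in SHAM hearts it passed at -0.73. Col1a1 was singled out after its values were seen.

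The hearts of a group also differed in markers of remodelling. Postn, the periostin of activated fibroblasts, stood at -0.12, -0.24 and -1.53 at ZT15, against -1.44, -0.71 and 0.83 at ZT03. Myh7, the slow myosin that rises in hypertrophy, stood at -0.30, -0.28 and -1.95 at ZT15, against -1.70, -0.54 and 0.32 at ZT03. For both genes the range among 3 hearts of a group exceeded the difference of the means, which was -0.19 for Postn and -0.20 for Myh7, and neither passed. Without ZT03 replicate 3 both means turned, to 0.45 for Postn and 0.28 for Myh7. The hypertrophy and fetal genes as a list had a median of 0.0028, whose sign turned with quantile normalization (-0.03), and which was 0.09 without ZT03 replicate 3. Among them Xirp1, an intercalated disc protein, stood at 0.87, 0.08 and 0.24 at ZT15, against -0.40, -0.35 and -0.08 at ZT03, with a difference of 0.68 ± 0.19 (limma adjusted p 0.255) and one of 0.00011 in SHAM hearts. Postn and Myh7 were singled out after their values were seen.

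**Figure D5:**
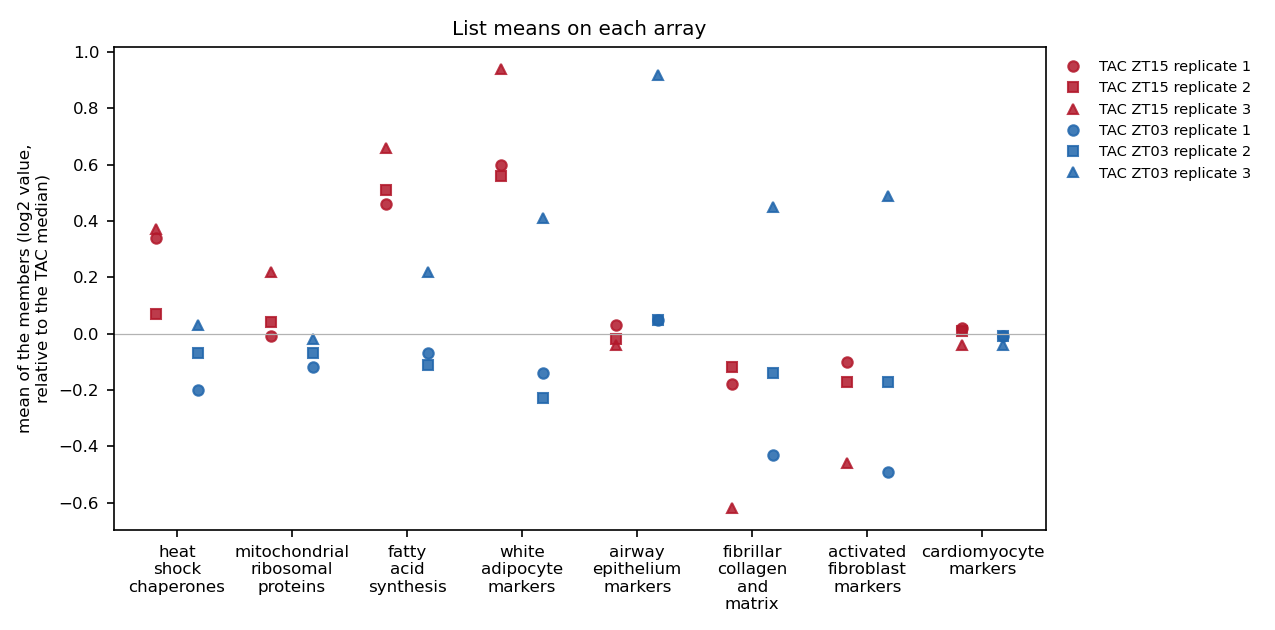
Each point is the mean log2 value of a list on 1 TAC array, relative to the TAC median; red is ZT15, blue ZT03, and the marker shape gives the replicate number, which pairs no hearts. ZT03 replicate 3 stands apart in airway markers (0.92), fibrillar matrix (0.45) and activated fibroblast markers (0.49), and lies at 0.41 in white adipocyte markers, against 0.60, 0.56 and 0.94 in the ZT15 hearts.

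Other named genes did not pass in TAC hearts. Rrad, a small GTPase that restrains calcium channels, stood at -1.29, -0.27 and -0.27 at ZT15, against 0.24, 0.50 and 0.51 at ZT03, with a difference of -1.03 ± 0.20 (limma adjusted p 0.0677), and passed in SHAM hearts at -1.24. Fbxo32, the muscle ubiquitin ligase atrogin-1, stood at -0.81, -0.25 and -0.98 at ZT15, against 0.14, 0.03 and -0.06 at ZT03, with no overlap (limma adjusted p 0.181). Adamts1, a matrix protease, stood at 0.66, -0.03 and -0.04 at ZT15, against -0.62, -0.53 and -0.63 at ZT03. Its difference was 0.79 ± 0.16 (limma adjusted p 0.101) in TAC and -0.11 in SHAM hearts. Ier3, an immediate early gene, differed by 0.82 ± 0.22 in TAC hearts (limma adjusted p 0.233) and passed in SHAM hearts at 1.14.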

How the data were processed

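RNA of the left ventricle was hybridised to single-channel Affymetrix arrays. The deposited series matrix holds log-scale values, taken here as log2; their base, and how probes were summarised and arrays scaled, is not given in the sources used here. Values were centred per probe set within each surgery before deposit, as tested on the file. Groups came from sample titles, and per the labels the 3 animals of a group are biological replicates. The platform annotation gave 1 symbol to 20393 of 22690 probe sets, including 13 controls that were dropped, and several symbols to 691, and it did not list 1606. Of 20380 Entrez identifiers 20351 matched RefSeq, and 0 symbols changed. The mean over probe sets was taken for each of 12393 genes, with no filter.

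The tests used limma 3.58.1 (lmFit, eBayes) under R 4.3.3: on the 18 TAC arrays, on the 18 SHAM arrays, and for their difference on all 36. Benjamini-Hochberg adjustment ran across every gene, with a threshold of 0.05, and the fit was checked on simulated data. The number of arrays and the spread between hearts limit the precision.

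The comparison, the 66 gene lists (44 of pathways, complexes and roles, 22 of cell markers) and the tests were chosen with earlier results of these data known. Named were the genes that passed, every measured clock gene, up to 2 genes of each list by smallest p where none passed, the 8 smallest p for the TAC minus SHAM difference, and genes said to be singled out after their values were seen. The airway genes, Adipoq, Tnfrsf12a and the list members given only as examples of a range were also chosen after their values were seen. Alternatives were quantile normalization, centring of arrays, array weights, robust eBayes, a replicate block, another probe set rule, marker covariates, other sets of arrays, a fold minimum and leaving out single arrays.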

Additional observations from a re-analysis of the deposited data

How the results depend on the processing

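The TAC count of 13 genes moved with most settings: 8 with quantile normalization, 3 with arrays centred on their medians, 6 with robust empirical Bayes, 2 with the marker covariates, 2 with only the 6 arrays compared, 105 with the spread of all 36 arrays (12 of the 13 among them, all but Ucp1), 8 with a minimum of 1.5-fold, and 1 to 18 when each heart was left out in turn. Array weights gave 766 in TAC hearts and 76 for the TAC minus SHAM difference, in fits where the weights did not converge, and 2927 in SHAM hearts. Leaving out single hearts gave 211 (without ZT15 replicate 2) to 1235 genes (without ZT03 replicate 1) in SHAM hearts, with 229 without ZT03 replicate 3 and 240 without ZT15 replicate 3. For the difference it gave 0 to 6, the 6 without TAC ZT03 replicate 3. Tested 1 by 1, 16 probe sets passed. Of the 13 genes, 0 turned sign under any of the 15 alternatives. Nr1d1 passed in 14 of the 15, with an adjusted p of 0.0562 when only the 6 arrays were fitted, and Slc41a3 in 12. Replicate numbers were not taken as pairs: deviations of same-numbered TAC hearts correlated at 0.174, 0.007 and 0.082, and with the number as a replicate block 12 genes passed in TAC, 469 in SHAM and 0 for the difference. List medians turned sign under some alternative in 31 of 66 lists. The all-gene median moved by at most 0.0109. A gene that did not pass is not shown to be equal at both times.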

Other observations

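Lists of calcium, contraction and signalling genes had medians near 0 in TAC hearts. Of 16 calcium handling genes 9 were positive at ZT15 minus ZT03 (median 0.03, or -0.02 without ZT03 replicate 3), and of 12 Z-disc and titin-binding genes 6 (0.04); in neither list did a gene pass. Ion channel genes were negative in 11 of 17, with a median of -0.03 and of -0.11 without ZT03 replicate 3. Kcnd3, a pore subunit of the transient outward potassium current, stood at -0.14, -0.26 and 0.04 at ZT15, against 0.17, 0.07 and -0.0015 at ZT03, and its groups overlapped. Genes of beta-adrenergic and cAMP signalling were negative in 13 of 15, with a median of -0.06. In 0 of the 15 were the groups free of overlap, against 12.9% of all genes. Gja1, the main gap junction protein of the ventricle, differed by -0.37 ± 0.15 (limma adjusted p 0.449) in TAC hearts and passed in SHAM hearts at -0.49.

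Immune and proliferation lists held small values as well. Inflammation genes were negative in 15 of 20, with a median of -0.07. Nr4a1, an immediate early nuclear receptor, stood at -0.34, -0.36 and -0.34 at ZT15, against 0.39, 0.30 and -0.14 at ZT03, at -0.54 ± 0.14 (limma adjusted p 0.197); in SHAM hearts it passed at -1.07. Macrophage markers had a median of 0.08, which lay between -0.07 and 0.29 when single hearts were left out. Cd163, a scavenger receptor of resident macrophages, stood at 0.09, 0.41 and 0.37 at ZT15, against -0.24, -0.32 and -0.14 at ZT03, and Lyve1, a marker of lymphatic endothelium and of some macrophages, at 0.17, 0.14 and 0.26 at ZT15, against -0.36, -0.29 and -0.19 at ZT03. Neither passed in TAC hearts (limma adjusted p 0.219 for Cd163 and 0.187 for Lyve1), and both passed in SHAM hearts, at 0.46 for Cd163 and 0.95 for Lyve1. Cell proliferation genes were negative in 14 of 19, with a median of -0.02.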
